A study of Homo sapiens with 73 samples.

Results

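The enzymes described here are 52 of the 36233 genes in the deposited expression table: 18 aldehyde dehydrogenases (ALDH), 11 aldo-keto reductases of the AKR1 family, 3 carbonyl reductases (CBR), 17 soluble or kappa-class glutathione transferases (GST) and 3 membrane-bound ones (MGST). Membership follows from a rule on the symbols, which uses no measured value. Of the 52, 34 had a mean of at least 10 over all libraries and could be tested, as 34 of the 14565 genes that passed this filter. The symbol rule leaves out ALDH2, whose name has another form.

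The cells were CHLA-9, an established Ewing sarcoma line that carries the EWSR1-FLI1 fusion, so every group shares this genotype and the study rests on 1 line. From the untreated parental culture, 10 replicate cultures, called lineages here, were set up. Lineages R1 to R7 received 5 cycles of 2 drug courses in turn, vincristine with doxorubicin and cyclophosphamide (VDC, odd time points) and etoposide with cyclophosphamide (EC, even time points), each for 5 days at a dose with 70% effect, and lineages R8 to R10 received the solvent DMSO and are numbered by the same 10 time points. Total RNA was taken after drug-free regrowth, so the values describe the surviving cultures and not cells under drug. There were 49 treated libraries, 23 DMSO libraries and 1 parental library. Time point 2 was measured in DMSO lineages only and time point 3 in treated lineages only. Values are quantile-normalised counts, called values below, and all differences and slopes are on the scale log2(value + 1). Replicates are lineages of 1 line, and in the overall and slope tests p-values measure the spread between lineages. The test of EC against VDC measures the spread of repeated libraries within lineages. At single time points the spread is pooled over all libraries without a lineage term, so repeated libraries of a lineage count as separate. In bulk RNA, fewer cells of a type and less RNA per cell cannot be told apart.

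Aldehyde dehydrogenases oxidise reactive aldehydes to acids. In cyclophosphamide metabolism, the intermediate aldophosphamide either breaks down to the alkylating mustard or is oxidised by cytosolic ALDH1A1 and related enzymes to an inactive acid. Carbonyl and aldo-keto reductases reduce the side-chain ketone of doxorubicin to its alcohol, and glutathione transferases couple electrophiles such as mustards and lipid aldehydes to glutathione. Several of these genes are textbook targets of the oxidative stress factor NRF2, which binds the antioxidant response element.

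The promoters shown are those of the 5 tested members whose 250 bases before the RefSeq transcription start hold the core of that element, TGACNNNGC, on either strand. These are the members for which a shared regulatory sequence can be set beside the values. Sequences are from RefSeq on GRCh38.p14, written 5′ to 3′ on the gene's strand, with the core in capitals. The windows are chr11:67583562-67583811 (+) for GSTP1, chr10:104254642-104254891 (+) for GSTO1, chr21:36069839-36069898 (+) for CBR1, chr1:109687626-109687685 (+) for GSTM1 and chr6:52995285-52995344 (-) for GSTA4. The whole window of 250 bases is given for GSTP1 and GSTO1, and 60 bases for the others.
GSTP1: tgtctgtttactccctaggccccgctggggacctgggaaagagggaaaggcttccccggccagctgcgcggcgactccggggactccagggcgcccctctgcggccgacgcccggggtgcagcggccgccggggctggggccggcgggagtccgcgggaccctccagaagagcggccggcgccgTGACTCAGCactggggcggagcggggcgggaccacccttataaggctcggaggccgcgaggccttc
GSTO1: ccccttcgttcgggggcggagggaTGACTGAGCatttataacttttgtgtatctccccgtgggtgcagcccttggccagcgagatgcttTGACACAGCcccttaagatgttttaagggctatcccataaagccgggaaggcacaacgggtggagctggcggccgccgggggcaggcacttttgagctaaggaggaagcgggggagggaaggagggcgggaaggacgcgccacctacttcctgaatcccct
CBR1: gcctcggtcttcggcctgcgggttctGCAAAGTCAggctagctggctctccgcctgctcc
GSTM1: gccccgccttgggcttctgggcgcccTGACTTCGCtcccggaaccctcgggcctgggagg
GSTA4: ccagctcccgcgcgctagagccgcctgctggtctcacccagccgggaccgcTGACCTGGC
The core begins 66 bases before the start in GSTP1, 226 and 161 bases before it in GSTO1, 165 in GSTM1 and 9 in GSTA4. In CBR1 it lies on the other strand, 159 bases before the start. An entry was matched for 43 members, of which 6 held the core, GSTM5 being the sixth and under the filter on low values. Over all 35116 promoter entries, 10.9% held it.

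Before any comparison, libraries that stood apart were noted. Each library's nearest neighbour was found by the correlation of centred log2 values over the 14565 genes. The library labelled R1 at time point 1 lay nearest the parental library (0.610 over genes), whereas the other treated libraries of that time point lay nearest one another. The library labelled R1 at time point 3 lay nearest R9 at time point 2 in DMSO (0.848), and those labelled R1 at time points 5, 6 and 7 lay nearest libraries of DMSO lineage R10. The libraries of R1 from time point 9 and of R2 from time point 10 were each other's nearest (0.918). In all, 41 of 49 treated and 14 of 23 DMSO libraries lay nearest one of their own arm. DMSO lineage R8 lay nearest treated libraries at time points 1, 4, 5, 6, 9 and 10. The other DMSO libraries nearest a treated one, R9 at time point 2 and R10 at 2 and 5, lay nearest R1. Treated libraries of R7 at time point 5 and R6 at 6 and 10 lay nearest R8. The nearest library was of the same lineage for only 4 of 49 treated and 6 of 23 DMSO libraries. Whether the labels of R1 and R8 are right was not settled. Without R1, 13 of the 15 treated slope calls reported below were still made, ALDH4A1 and GSTO1 being lost. Of 10 Ewing sarcoma markers, 9 had a median of at least 10 in each arm, while CD99 was listed near 0 in these values (median 0.583, highest 2.31). The epithelial markers EPCAM and CDH1 and the blood markers CD3E and LYZ had medians below 1.

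The 34 tested members were compared per kilobase of exon, taken over the union of annotated exons, because values of different genes also depend on length. This union can be longer than the transcripts present, so the order depends on the annotation. Before division ALDH7A1 had the highest treated mean, 4023 beside 3506 for GSTP1. Over 17970 bases its level was 224 ± 61.4 per kb in treated libraries (SD, n = 49). GSTP1, the pi-class glutathione transferase, had the highest level at 1835 ± 248 per kb in treated libraries (SD, n = 49) and 1796 ± 285 in DMSO libraries (SD, n = 23). ALDH9A1, which makes a precursor of carnitine, followed with 593 ± 112 per kb in treated libraries. ALDH18A1, which starts proline synthesis from glutamate, had 427 ± 39.8 there, and its range did not reach that of GSTP1. GSTO1 (omega class, 360.3 ± 77.6 per kb), GSTA4 (a transferase for the lipid aldehyde hydroxynonenal, 359.5 ± 52.2) and ALDH5A1 (succinic semialdehyde dehydrogenase of GABA breakdown, 343 ± 78.5) had neighbouring levels that did not differ beyond their spread. The lipid- and sugar-aldehyde reductases AKR1A1 and AKR1B1 had 312 ± 60.0 and 253 ± 44.1 per kb. Among the enzymes that act on the drugs, CBR1 had 152 ± 28.5 per kb, ALDH1A1 49.1 ± 53.5, CBR3 22.4 ± 9.95, AKR1C3 15.3 ± 5.20 and AKR1C1 3.92 ± 2.71. ALDH1A1 thus had an SD larger than its mean.

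**Figure D1:**
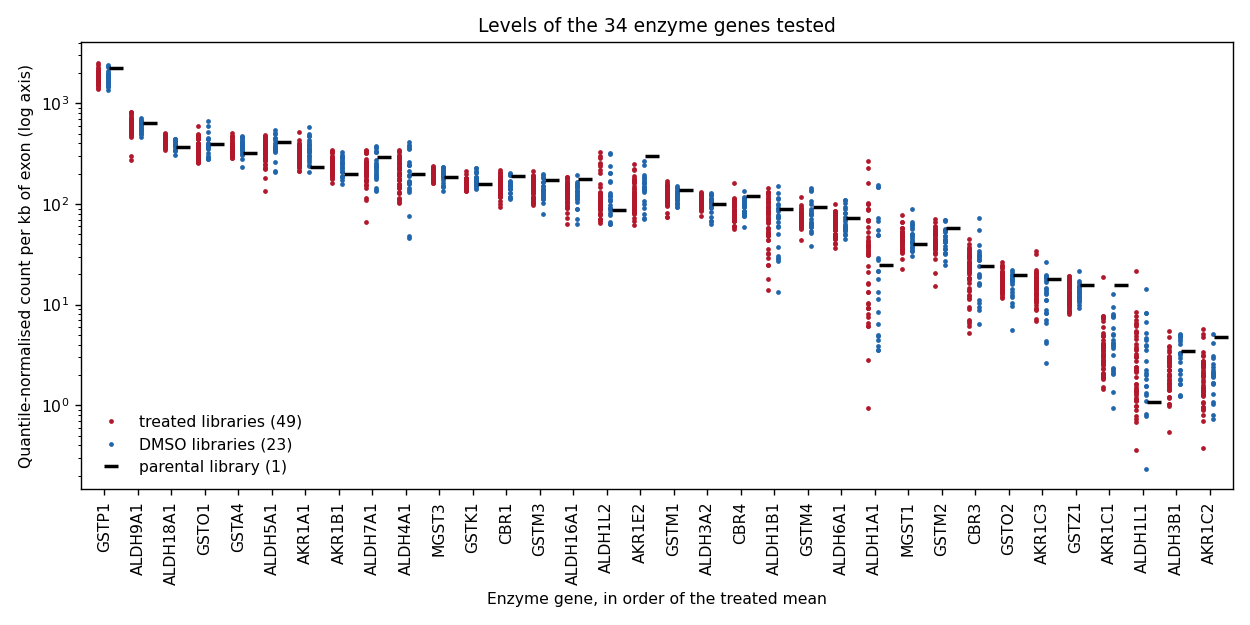
Quantile-normalised counts per kilobase of exon (log axis) of the 34 tested enzyme genes, with 1 point per treated or DMSO library and a bar for the parental library. GSTP1 lies above all others, ALDH1A1 and ALDH1L1 spread most between libraries, and AKR1E2 and AKR1C1 have a parental value at or near the top of their range.

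The members differed widely in how much they varied between libraries. ALDH1A1 ranged from 2.66 to 763 over all libraries, with an SD of 1.66 on the log2 scale, above that of 98.1% of genes. ALDH1L1, the cytosolic formyltetrahydrofolate dehydrogenase, had an SD of 1.17 and ranged from 3.21 to 294. ALDH1B1, a mitochondrial acetaldehyde-oxidising enzyme, and CBR3 followed with SDs of 0.80 and 0.77. At the other end, ALDH18A1 (SD 0.15, above 5.97% of genes), GSTK1 and MGST3 (0.17 each) and GSTP1 (0.20) were the most even. The median member had an SD of 0.34, and the median of all genes was 0.32.

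Of the 18 members under the filter, 14 were below 1 in most of the 73 libraries. ALDH8A1 was at least 1 in 67 libraries, AKR1C8 in 56, ALDH1A3 in 54 and GSTM5 in 53. ALDH3A1, which oxidises aldophosphamide in other tissues, had a median of 0.0144 and a highest value of 3.26. AKR1B10 reached 6.79, ALDH1A2 7.86 and MGST2 6.08. The highest values among them were 19.3 for AKR1C8, 15.0 for ALDH1A3, 14.5 for GSTA1 and 14.2 for ALDH8A1. The others, ALDH3B2, AKR1B15, AKR1C4, AKR1D1, GSTA2, GSTA3, GSTA5, GSTM5, GSTT2 and GSTT4, had medians between 0.0104 and 2.02. Retinal-oxidising ALDH1A enzymes other than ALDH1A1 and alpha-class transferases other than GSTA4 therefore had means under 10 in these libraries.

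The first comparison set the 7 treated lineages against the 3 in DMSO, each lineage having 1 value over its libraries, adjusted for time point. With all lineages included, no member differed past the threshold in either direction. In limma with Benjamini-Hochberg adjustment, 0 of 34 members and 0% of all 14565 genes passed at an adjusted p under 0.05, and 4 members (11.8%) had an unadjusted p under 0.05 beside 13.5% of all genes. The median difference of the members was -0.040, and that of all genes -0.0036, with 13 members above and 21 below 0. For none of the 34 members did all 7 treated lineages lie beyond all 3 DMSO lineages, which held for 3.01% of genes. Without DMSO lineage R8, which often lay nearest treated libraries, 1 member and 9.32% of genes passed. In that fit 11 members had an unadjusted p under 0.05 (limma). Without any other single lineage, 0 members and 0% of genes passed.

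The smallest p-values belonged to ALDH5A1, ALDH18A1, ALDH7A1, GSTK1 and CBR4. ALDH5A1 had treated libraries from 735 to 2644 (median 1893) and DMSO libraries from 1150.4 to 2985 (median 1990), and the lineage values differed by -0.17 ± 0.064 (SE; adjusted p = 0.320, limma). ALDH18A1 ranged from 1291 to 1894 (median 1583) in treated and from 1159 to 1675 (median 1484) in DMSO libraries. Its difference was 0.13 ± 0.052 (SE; adjusted p = 0.327, limma), with the treated lineage R1 lowest of its arm (0.16 without R1). ALDH7A1, the lysine-breakdown enzyme antiquitin, differed by -0.14 ± 0.060, GSTK1, the kappa-class transferase of mitochondria and peroxisomes, by -0.080 ± 0.035, and CBR4, a mitochondrial carbonyl reductase, by -0.16 ± 0.075. In each of these genes the lineages of both arms overlapped.

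Of the enzymes that act on the drugs, none differed past the threshold. ALDH1A1 libraries had a median of 104 in treated (2.66 to 763) and of 61.4 in DMSO lineages (9.99 to 440.4). Its difference of 0.48 ± 0.48 (SE; adjusted p = 0.674, limma) was as large as its error. AKR1C3, a hydroxysteroid dehydrogenase that also reduces doxorubicin, had medians of 66.1 (31.3 to 154) and 59.7 (11.8 to 119) and differed by 0.34 ± 0.17 (SE; adjusted p = 0.396). CBR1 differed by -0.042 ± 0.051, CBR3 by -0.16 ± 0.19, AKR1C1 by -0.087 ± 0.21, AKR1C2 by 0.031 ± 0.18 and AKR1B1 by 0.079 ± 0.055. Among the transferases the differences were 0.033 ± 0.039 for GSTP1, -0.060 ± 0.089 for GSTO1, -0.038 ± 0.053 for GSTM1, -0.017 ± 0.069 for GSTM2, 0.032 ± 0.056 for GSTM3, -0.16 ± 0.12 for GSTM4, -0.052 ± 0.040 for GSTA4, -0.030 ± 0.066 for GSTZ1, -0.12 ± 0.073 for MGST1 and 0.020 ± 0.042 for MGST3. AKR1C1 shares 28.3% of its 50-base stretches with AKR1C2, which shares 38.1% of its own with AKR1C1, and GSTM1 shares 37.2% with GSTM2, which shares 12.1% with GSTM1, so reads of these pairs could be divided between them in ways the labels do not describe. ALDH2, outside the symbol rule, differed by -0.12 ± 0.072. Without DMSO lineage R8, 9.32% of genes and 1 member, GSTM4 (-0.40), passed.

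**Figure D2:**
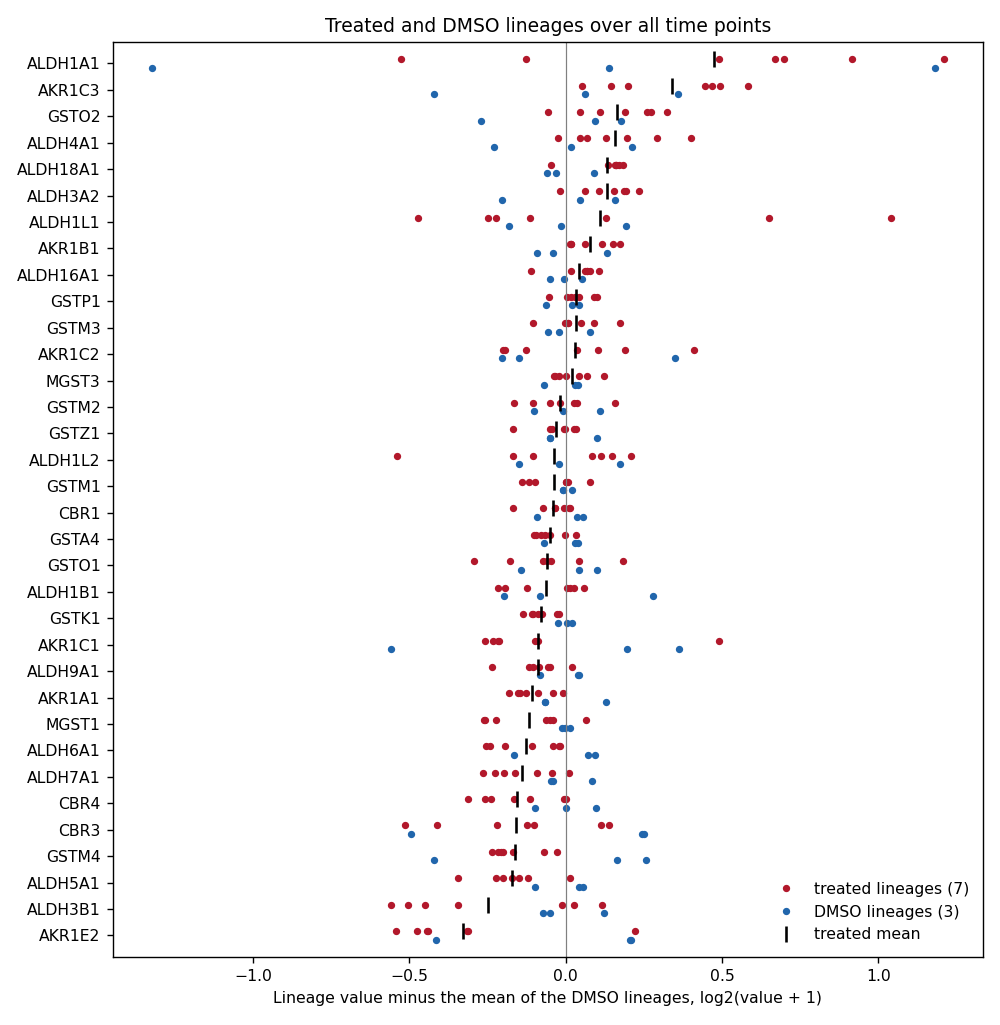
Values of each treated (7) and DMSO (3) lineage, taken over its time points, as log2(value + 1) minus the mean of the DMSO lineages, with the treated mean as a bar, for the 34 enzyme genes. In every row the points of the arms overlap, and ALDH1A1 has the widest spread in both.

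The second comparison followed each lineage through time, as the least squares slope of log2(value + 1) per time point. In treated lineages 7 members rose (20.6%) and 8 fell (23.5%), beside 15.6% of all genes rising and 23.8% falling at an adjusted p under 0.05 (limma, Benjamini-Hochberg). In DMSO lineages, without any drug, 3 members rose and 4 fell (8.82% and 11.8%), beside 4.55% and 5.31% of all genes. The shares of members in the treated arm were thus close to those of all genes. ALDH1L1, ALDH1L2 and ALDH1B1 rose and ALDH7A1, ALDH4A1 and ALDH16A1 fell in both arms. As a plain description of the libraries, all values of time point 8 lay above all those of time point 1 for 2 members and below for 5 in the treated arm, beside 10.4% of all genes each way. In the DMSO arm this held for 9 and 10 members, beside 16% and 20.2% of all genes. Treated lineage R5 had no library at time point 1 and R1 none at time point 8, so the treated groups of these time points are not the same lineages. The difference of the slopes between arms passed for 0 members and 0% of genes, with 3 members and 9.15% of genes at an unadjusted p under 0.05.

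The aldehyde dehydrogenases that rose in both arms were ALDH1L1, ALDH1L2 and ALDH1B1. ALDH1L1 (chromosome 3, 126103562 to 126197994, GENCODE v29) was at 14.6 in the parental library, and at 10.7, 18.0 and 27.2 in DMSO and 10.1 to 49.0 (median 18.7) in treated libraries at time point 1. By time point 8 it was at 48.6, 54.8 and 114 in DMSO and 22.3 to 106 (median 36.0) in treated libraries. The DMSO groups did not overlap, while the treated ones did, R1 at time point 1 being the high value. Its slope was 0.20 ± 0.024 per time point in treated (SE; adjusted p = 0.00206, limma) and 0.30 ± 0.036 in DMSO lineages (adjusted p = 0.0174, limma), rising in 7 of 7 and 3 of 3 lineages.

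ALDH1L2 (chromosome 12, 105019784 to 105084577), the mitochondrial counterpart of ALDH1L1, was at 737 in the parental library. At time point 1 it was at 540.3, 564 and 656 in DMSO and 550.2 to 677 (median 595) in treated libraries, and at time point 8 at 838, 1095 and 1743 in DMSO and 759 to 2406 (median 989) in treated libraries. All values of time point 8 lay above all those of time point 1 in both arms, as for 10.4% of all genes in treated and 16% in DMSO libraries. The slopes were 0.12 ± 0.021 in treated (adjusted p = 0.00346, limma) and 0.15 ± 0.032 in DMSO lineages (adjusted p = 0.0260, limma). The course was uneven, with single high libraries such as R1 at time point 3 (2041), R3 at time point 5 (2158), R7 at time point 6 (1829.7) and, in DMSO, R9 at time point 2 (2037). Other high values appeared at time points 9 and 10 in both arms, at 2673 and 2711 in DMSO lineage R10, 2519 in R1 and 2797 in R5.

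ALDH1B1 (chromosome 9, 38392664 to 38398661) was at 278 in the parental library and at 85.8, 95.3 and 119 in DMSO libraries at time point 1. Treated libraries of that time point lay between 56.9 and 102, except the one labelled R1 at 338. At time point 8 the values were 227, 234 and 481 in DMSO and 256 to 411 (median 287) in treated libraries. The gene was thus below the parental library at time point 1 in each lineage measured then except R1. At time point 8 its values lay on both sides of the parental value in both arms. Its slope was 0.17 ± 0.028 in treated (adjusted p = 0.00276, limma; 7 of 7 rising) and 0.19 ± 0.043 in DMSO lineages (adjusted p = 0.0299, limma; 3 of 3 rising), and without R1 the treated slope was 0.18. The increase was early: lineage means of time points 4 to 6 exceeded those of time points 1 to 3 by 0.98 ± 0.46 in treated (SD, n = 7 lineages, 7 up) and 1.76 ± 0.49 in DMSO lineages (SD, n = 3, 3 up), while time points 8 to 10 differed from 4 to 6 by 0.18 ± 0.35 and -0.15 ± 0.099.

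ALDH1A1 (chromosome 9, 72900662 to 73080442), the retinal- and aldophosphamide-oxidising enzyme, followed a like early course without passing the threshold. It was at 69.7 in the parental library. At time point 1 it was at 9.99, 14.2 and 32.3 in DMSO and 17.6 to 28.6 in treated libraries other than R1, which was at 99.0. At time point 4 treated lineages were at 93.4 to 763, except R1 at 7.93, and at time point 8 they ranged from 88.7 to 654 (median 198). Time points 4 to 6 exceeded 1 to 3 by 1.80 ± 0.87 in treated (SD, n = 7, 7 up) and 2.14 ± 0.69 in DMSO lineages (SD, n = 3, 3 up). Later the lineages parted. R8 in DMSO was at 422, 421 and 205 at time points 8, 9 and 10, whereas R9 was at 11.0 and 10.2 at time points 8 and 9. Among treated lineages R4 was at 251 at time point 9 and R6 at 287 at time point 10, whereas the last libraries of R1 (time point 9) and R2 (time point 10) were at 17.3 and 2.66. The mean slopes were 0.20 ± 0.10 in treated (adjusted p = 0.144, limma) and 0.23 ± 0.15 in DMSO lineages (adjusted p = 0.299, limma), with 4 of 7 and 2 of 3 lineages rising. Without these late libraries of R1 and R2 the treated slope was 0.29 and passed, as did 38.2% of all genes. Without 4 late DMSO libraries that stood apart, of R9 at time points 8 and 9 and R10 at 9 and 10, the DMSO slope was 0.48 and passed, as did 13.7% of all genes. These libraries were chosen after the levels were seen. Those of R1, R2 and R9 held the low values given above, so steeper slopes follow from leaving them out.

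**Figure D3:**
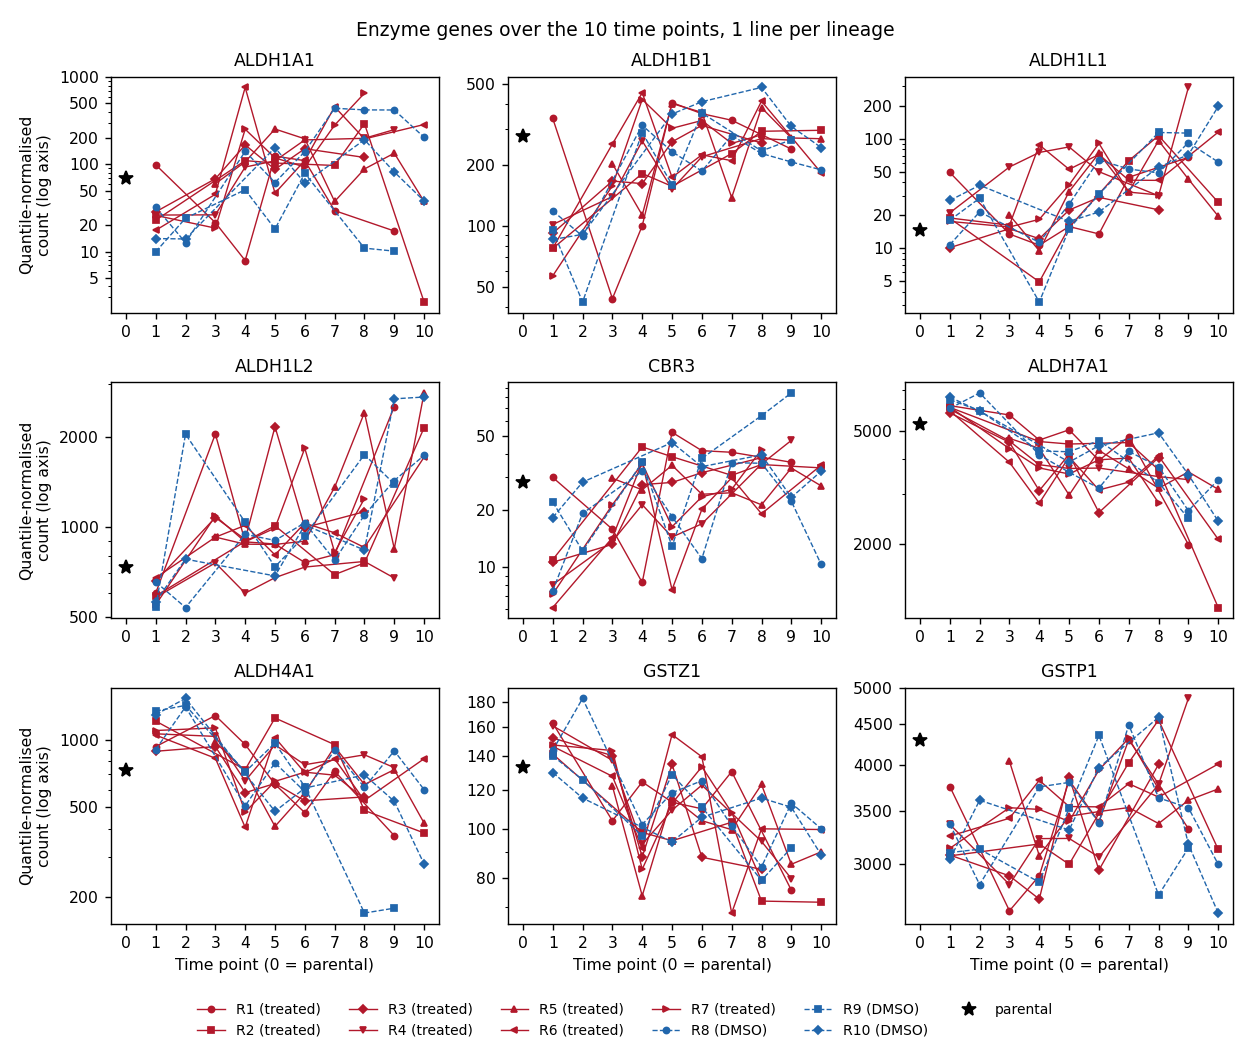
Quantile-normalised counts (log axis) of 9 enzyme genes against time point, with 1 line per lineage, solid red for treated and dashed blue for DMSO, and a star for the parental library at 0. ALDH1B1 and CBR3 are higher at time point 4 than at 1 in each lineage measured at both except R1, ALDH7A1, ALDH4A1 and GSTZ1 descend in both, and ALDH1A1 lineages spread apart late.

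The aldehyde dehydrogenases that fell in treated lineages were ALDH7A1, ALDH4A1, ALDH16A1, ALDH5A1 and ALDH9A1. ALDH7A1 (chromosome 5, 126531200 to 126595418) was at 5294 in the parental library, and at 6017, 6465 and 6595 in DMSO and 5803 to 6153 (median 6025) in treated libraries at time point 1. By time point 8 it was at 3292, 3744 and 4935 in DMSO and 2788 to 4085 (median 3552) in treated libraries, below every value of time point 1. Its slopes were -0.12 ± 0.018 in treated (adjusted p = 0.00224, limma) and -0.13 ± 0.028 in DMSO lineages (adjusted p = 0.0272, limma), and all 10 lineages fell. The lowest values were 1190.4 in R2 at time point 10 and 1988 in R1 at time point 9.

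ALDH4A1 (chromosome 1, 18871430 to 18902781), which oxidises the product of proline breakdown, was at 736 in the parental library. It was at 903, 1291 and 1338 in DMSO and 888 to 1208 (median 1054) in treated libraries at time point 1, and at 169.9, 613 and 697 in DMSO and 485 to 856 (median 551) in treated libraries at time point 8. Neither arm overlapped between these time points, and R9 at time points 8 and 9 held the lowest values, 169.9 and 179. The slopes were -0.11 ± 0.035 in treated (adjusted p = 0.0323, limma) and -0.23 ± 0.053 in DMSO lineages (adjusted p = 0.0339, limma). Without R1 the treated slope of -0.095 had an adjusted p of 0.0785 (limma), within a range of 0.00126 to 0.648 over all alternatives. The gene AL080251.1 shares 41.1% of the exon bases of ALDH4A1 on the same strand, so its reads are uncertain.

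ALDH16A1 fell in 7 of 7 treated lineages. Treated libraries were at 587 to 869 (median 836) at time point 1, R1 being the lowest, and at 427 to 667 (median 487) at time point 8. In DMSO it fell from 718, 732 and 895 to 411, 413 and 582. The slopes were -0.099 ± 0.013 in treated (adjusted p = 0.00206, limma) and -0.11 ± 0.019 in DMSO lineages (adjusted p = 0.0231, limma). ALDH5A1 fell in treated lineages. Treated libraries were at 2044 to 2468 (median 2355) at time point 1 and at 1224 to 1855 (median 1671) at time point 8, groups that did not overlap. Its slope was -0.094 ± 0.020 (adjusted p = 0.00631, limma), and the DMSO slope of -0.083 ± 0.030 did not pass (adjusted p = 0.0917, limma). ALDH9A1 went from a median of 2130.4 (2079 to 2339) to 1903 (1626 to 1938) in treated libraries, with a slope of -0.059 ± 0.014 (adjusted p = 0.00875, limma; -0.049 without R1), and -0.034 ± 0.021 in DMSO lineages (adjusted p = 0.266, limma).

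Other aldehyde dehydrogenases did not pass in either arm. ALDH18A1 had slopes of 0.018 ± 0.0099 in treated and -0.018 ± 0.015 in DMSO lineages. Those of ALDH3A2, the fatty aldehyde dehydrogenase, were -0.026 ± 0.013 and -0.052 ± 0.020. ALDH6A1, of valine breakdown, had -0.019 ± 0.017 and -0.069 ± 0.025, and ALDH3B1 -0.042 ± 0.026 and -0.10 ± 0.039. ALDH6A1 was lower at time points 4 to 6 than 1 to 3 in all 7 treated lineages (-0.42 ± 0.24, SD) and all 3 DMSO lineages (-0.63 ± 0.033, SD). So were ALDH3A2 (-0.16 and -0.26) and ALDH3B1 (-0.58 and -0.90). The first window held time points 1 and 3 in the treated arm and 1 and 2 in DMSO. For these windows the share of all genes that moved in every lineage was not computed.

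Among the aldo-keto reductases, AKR1B1 (aldose reductase, chromosome 7, 134442350 to 134459284) rose and AKR1E2, which reduces anhydrofructose, fell in treated lineages. AKR1B1 was at 728 in the parental library. It was at 643 to 781 (median 704) at time point 1 and 865 to 1196 (median 1035) at time point 8 in treated libraries, and at 631, 675 and 769 and then 778, 919 and 1212 in DMSO libraries. In neither arm did the time points overlap, which held upwards for 10.4% and 16% of all genes. The slope was 0.069 ± 0.017 in treated lineages (adjusted p = 0.0102, limma; 7 of 7 rising) and 0.044 ± 0.025 in DMSO lineages (adjusted p = 0.240, limma; 2 of 3 rising). AKR1E2 was highest in the parental library, at 719. In treated libraries it was at 327 to 433 (median 411) at time point 1 and at 164 to 399 (median 237) at time point 8, groups that overlapped. Its slope was -0.085 ± 0.026 (adjusted p = 0.0257, limma), with 5 of 7 lineages falling (-0.10 without R1), and -0.037 ± 0.040 in DMSO lineages (adjusted p = 0.530, limma). The treated call was lost in 7 of 20 alternatives, with adjusted p up to 0.396 (limma).

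AKR1C1, a hydroxysteroid dehydrogenase and textbook NRF2 target, was at 136 in the parental library. It was at 50.8, 65.6 and 71.2 in DMSO libraries at time point 1, and at 43.0 to 67.7 in treated libraries other than R1, which was at 18.3. By time point 8 it was at 8.16, 17.8 and 32.2 in DMSO and 12.8 to 36.5 (median 18.7) in treated libraries. The DMSO slope of -0.18 ± 0.048 passed (adjusted p = 0.0395, limma; 3 of 3 falling), although it was lost in 12 of 20 alternatives, and the treated slope of -0.082 ± 0.031 did not (adjusted p = 0.0556, limma; 6 of 7 falling). AKR1C2 had slopes of -0.019 ± 0.041 in treated and -0.11 ± 0.063 in DMSO lineages, AKR1C3 of 0.011 ± 0.034 and -0.10 ± 0.053, and AKR1A1 of -0.0030 ± 0.016 and 0.017 ± 0.024. AKR1A1 was lower at time points 4 to 6 than at 1 to 3 in all 7 treated lineages (-0.33 ± 0.11, SD) and higher again at time points 8 to 10 in 5 of them. All 3 DMSO lineages took the same course, with differences of -0.59 ± 0.34 and then 0.63 ± 0.42 (SD).

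Of the carbonyl reductases, CBR3 rose and CBR4 fell in treated lineages, and CBR1 did not pass. CBR3 (chromosome 21, 36134912 to 36146566) was at 28.5 in the parental library and at 7.48, 18.3 and 22.1 in DMSO libraries at time point 1. The treated libraries of that time point lay between 6.10 and 11.0, except R1 at 30.0. At time point 8 they were at 19.2 to 42.2 (median 35.2), and DMSO libraries at 35.6, 39.5 and 63.8. As for ALDH1B1, R1 was the only library of time point 1 above the parental value. The slopes were 0.18 ± 0.038 in treated (adjusted p = 0.00625, limma; 6 of 7 rising) and 0.13 ± 0.058 in DMSO lineages (adjusted p = 0.147, limma; 3 of 3 rising). Without R1 the treated slope was 0.18. The antisense gene CBR3-AS1 shares 42.2% of the exon bases of CBR3 on the opposite strand, and whether the counting used strand is not given in the sources used here. CBR3-AS1 itself had slopes of -0.015 ± 0.020 in treated and -0.088 ± 0.031 in DMSO lineages and did not pass.

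CBR4 (chromosome 4, 168863770 to 169010275) fell in all 7 treated lineages. Treated libraries were at 433 to 561 (median 510.3) at time point 1 and at 289 to 493 (median 391) at time point 8. Its slope was -0.072 ± 0.012 (adjusted p = 0.00291, limma), and the DMSO slope was -0.035 ± 0.018 (adjusted p = 0.204, limma). CBR1, the main cytosolic reductase of doxorubicin in textbooks, had slopes of 0.029 ± 0.016 in treated (adjusted p = 0.165, limma) and 0.022 ± 0.024 in DMSO lineages (adjusted p = 0.538, limma). It was at 459 in the parental library, 441 in R1 and 260.2 to 312 in the other treated libraries at time point 1, and 342 to 497 at time point 8.

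Among the glutathione transferases, GSTP1 and GSTO1, whose promoters are printed above, rose in treated lineages and GSTZ1 fell. GSTP1 (chromosome 11, 67583595 to 67586656) was at 4291 in the parental library. In treated libraries it was at 3072 to 3756 (median 3197) at time point 1 and 3374 to 4554 (median 3754) at time point 8. DMSO libraries were at 3043, 3102 and 3368 and then at 2743, 3634 and 4589.8, so the time points overlapped in both arms. The treated slope was small, 0.036 ± 0.0098 (adjusted p = 0.0155, limma), with 7 of 7 lineages rising, and the DMSO slope was 0.0021 ± 0.015 (adjusted p = 0.930, limma). The difference of these slopes, 0.034 ± 0.018, did not pass (adjusted p = 0.573, limma).

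GSTO1 (chromosome 10, 104235356 to 104267459) was at 659.6 in the parental library. It was at 658 in R1 and 441 to 518 in the other treated libraries at time point 1, and at 528 to 752 (median 649.8) at time point 8. DMSO libraries were at 476, 486 and 505 at time point 1 and at 644, 650.2 and 1010.5 at time point 8. The slope was 0.049 ± 0.018 in treated lineages (adjusted p = 0.0452, limma; 7 of 7 rising), and this call was lost in 10 of 20 alternatives, among them without R1 (0.052). In DMSO lineages it was 0.043 ± 0.027 (adjusted p = 0.276, limma). GSTZ1 (chromosome 14, 77320884 to 77331597), an isomerase of tyrosine breakdown, was at 134 in the parental library. It fell from 141 to 163 at time point 1 to 71.9 to 123 (medians 149.9 and 88.9) at time point 8 in treated libraries, and from 130.0, 140.4 and 144 to 79.1, 84.1 and 116 in DMSO libraries, without overlap. The slopes were -0.087 ± 0.013 (adjusted p = 0.00234, limma; 7 of 7 falling) and -0.064 ± 0.020 (adjusted p = 0.0612, limma; 3 of 3 falling).

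The other transferases did not pass in either arm. Mu-class slopes in treated lineages were 0.016 ± 0.016 for GSTM1, -0.034 ± 0.027 for GSTM2, 0.040 ± 0.018 for GSTM3 and -0.017 ± 0.020 for GSTM4. GSTA4 had -0.0057 ± 0.015, GSTO2 0.034 ± 0.020, GSTK1 -0.0024 ± 0.0098, MGST1 0.019 ± 0.023 and MGST3 -0.0074 ± 0.0084. Mean slopes in DMSO lineages were 0.0037 for GSTM1, -0.090 for GSTM2, 0.0045 for GSTM3 and 0.062 for GSTM4. Those of GSTA4, GSTO2, GSTK1, MGST1 and MGST3 were -0.048, -0.064, -0.035, 0.084 and -0.033 there. Of the 5 tested members with the antioxidant response element core, GSTP1 and GSTO1 rose in treated lineages, where 15.6% of all genes rose, and GSTM1, GSTA4 and CBR1 did not pass. In DMSO lineages none of the 5 passed. GSTO2 had the smallest p for the difference of the slopes, 0.098 ± 0.037 (adjusted p = 0.510, limma), with treated lineages at 0.034 and DMSO lineages at -0.064, where R9 alone was at -0.17. The next were ALDH1L1 (-0.10 ± 0.043), GSTM4 (-0.079 ± 0.036), ALDH18A1 (0.036 ± 0.018) and GSTP1, given above.

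**Figure D4:**
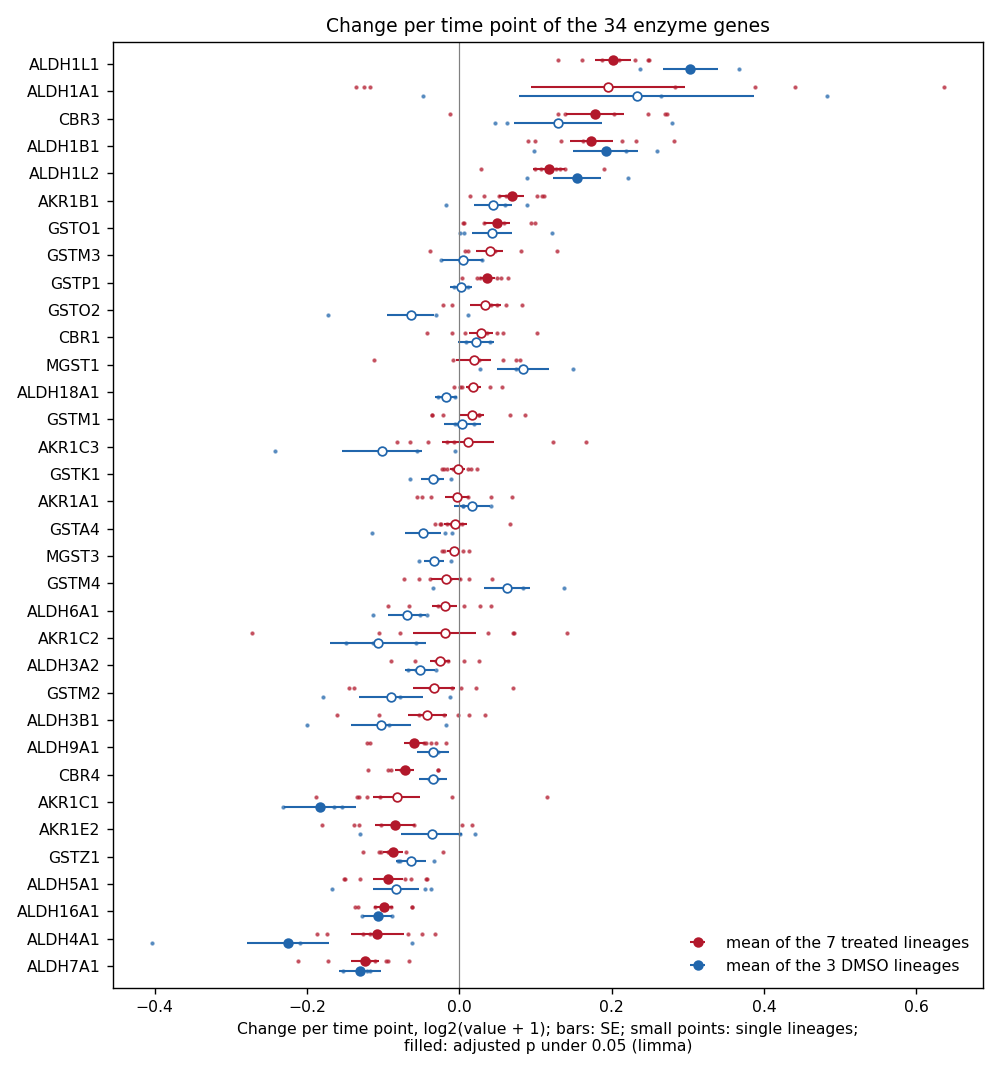
Mean change per time point in log2(value + 1) with its standard error for the 34 enzyme genes in the 7 treated (red) and 3 DMSO lineages (blue), with single lineages as small points and filled symbols for an adjusted p under 0.05. Symbols of both colours lie on the same side of 0 for ALDH1L1, CBR3, ALDH1B1 and ALDH1L2 at the top and for ALDH7A1, ALDH4A1, ALDH16A1 and ALDH5A1 at the bottom.

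With time points 4 to 10 alone, a choice made after the levels were seen, 0 members and 0% of genes passed in either arm (limma), although 7 members in treated and 8 in DMSO lineages had an unadjusted p under 0.05. The treated slopes in that fit were nearer 0 for ALDH1B1 (0.055) and ALDH4A1 (-0.050), while those of ALDH1L1 (0.23), ALDH1L2 (0.12), ALDH16A1 (-0.13) and CBR4 (-0.10) were as large as over all time points or larger. Without time point 1 alone, ALDH1L1, ALDH16A1, GSTZ1 and CBR4 still passed in treated lineages and no member did in DMSO lineages. Leaving out DMSO lineage R9 or R10 also left 0 members in the DMSO arm. Leaving out any 1 lineage left 12 to 18 members in the treated arm. With libraries in place of lineages as the unit (no replicate block), 18 members and 38.3% of all genes passed in the DMSO arm.

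The third comparison was of treated libraries after EC with those after VDC, with lineage as a block and a linear time term. No member passed, as no gene did (0% of genes; limma with Benjamini-Hochberg), but 7 members (20.6%) had an unadjusted p under 0.05 beside 14.5% of all genes. The 5 smallest p-values belonged to ALDH6A1, ALDH4A1, AKR1C3, AKR1A1 and CBR4. The lineage means given with them are not adjusted for time, unlike the fitted differences. The share of all genes with the same counts of lineages, or without overlap, was not computed, so these counts only describe the members. In treated lineages the first libraries after EC were those of time point 4, as none was measured at time point 2. ALDH6A1 had lineage means of 377 to 535 after VDC and 291 to 413 after EC, lower after EC in 6 of 7 lineages, and differed by -0.31 ± 0.091 (SE; adjusted p = 0.115, limma). ALDH4A1 had lineage means of 763 to 1135 after VDC and 535 to 762 after EC, lower in 7 of 7 lineages without overlap, and differed by -0.37 ± 0.11 (adjusted p = 0.122, limma). AKR1C3 was higher after EC in 7 of 7 lineages, with means of 47.9 to 71.2 after VDC and 59.5 to 106 after EC, and differed by 0.40 ± 0.12 (adjusted p = 0.127, limma). AKR1A1 differed by -0.24 ± 0.080 (adjusted p = 0.148, limma) and was lower after EC in 6 of 7 lineages. CBR4 differed by 0.18 ± 0.068 (adjusted p = 0.208, limma), although its unadjusted means were higher after EC in only 3 of 7 lineages. Of members that fell with time, ALDH7A1 and GSTZ1 also had lower means after EC in 7 of 7 lineages, while ALDH16A1 had higher ones in 2 of 7.

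**Figure D5:**
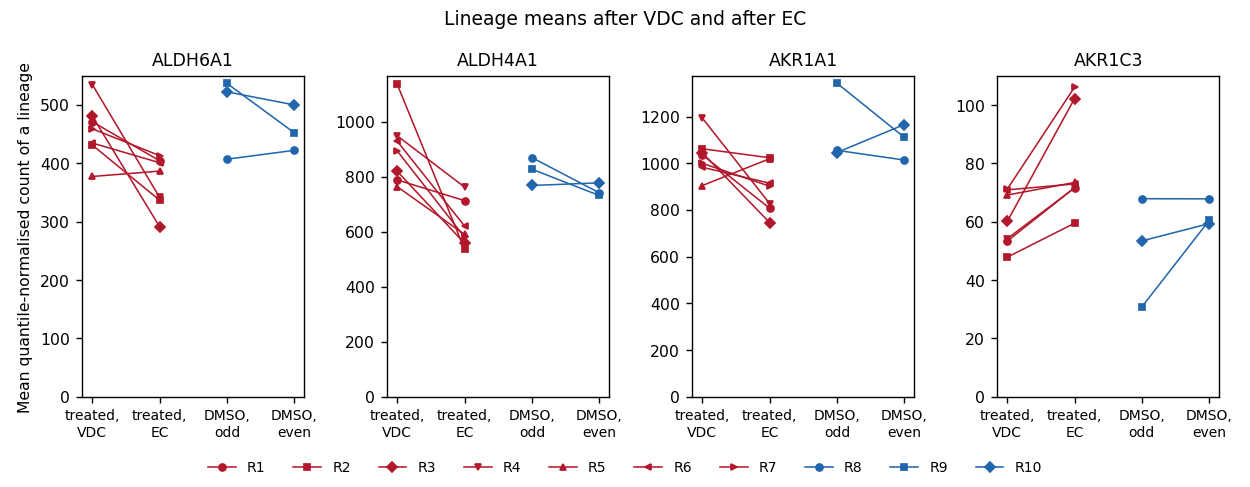
Lineage means of the quantile-normalised count after VDC and after EC in treated lineages (red), and at odd and even time points in DMSO lineages (blue), for ALDH6A1, ALDH4A1, AKR1A1 and AKR1C3. Means are not adjusted for time. All 7 treated lines fall for ALDH4A1 and all 7 rise for AKR1C3, and DMSO lines run in part the same way.

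DMSO lineages, which received neither course, gave the background for odd and even time points. They were measured at time point 2 and not at time point 3, so their unadjusted means do not cover the same time points as those of treated lineages. There ALDH4A1 was at 768 to 869 at odd and 732 to 777 at even time points, AKR1C3 at 30.8 to 67.9 and 59.4 to 67.8, and ALDH6A1 at 407 to 537 and 422 to 499.8. ALDH4A1 and ALDH6A1 were lower at even time points in 2 of 3 DMSO lineages, and AKR1C3 was higher in 2 of 3. The difference of the effect between arms passed for 0 members and 0% of genes (limma), with 2 members at an unadjusted p under 0.05. These were GSTO2 (-0.35 ± 0.16) and ALDH16A1 (0.24 ± 0.12), each with an adjusted p of 0.914 (limma). ALDH6A1 (-0.27 ± 0.16), ALDH7A1 (-0.25 ± 0.15) and ALDH5A1 (-0.22 ± 0.15) were next. Without R1, ALDH6A1 (-0.37) and ALDH4A1 (-0.46) passed the EC comparison in treated lineages, as did 1.13% of all genes, and without R5, ALDH6A1 (-0.37) and 1.04% of all genes did.

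At single time points, treated and DMSO libraries were compared at time points 1, 4, 5, 6, 7, 8, 9 and 10. No member passed at any of them (limma with Benjamini-Hochberg). Of all genes 0% passed at time points 1, 4, 5, 6, 7 and 8, 1.33% at time point 9 and 0.0618% at time point 10. The number of members with an unadjusted p under 0.05 was between 0 and 3 at time points 1 to 9 and 7 (20.6%) at time point 10, beside 11.8% of all genes there. ALDH18A1 at time point 10 had the smallest p, with 1583, 1604 and 1786 in treated and 1159 and 1299 in DMSO libraries, which did not overlap (0.43 ± 0.12; adjusted p = 0.136, limma). At time point 9 ALDH9A1 had the smallest, with 998, 1631 and 1671 in treated and 1757, 1894 and 2143 in DMSO libraries (-0.46 ± 0.18; adjusted p = 0.182, limma). Without R1, the lowest of these, its difference was -0.22. GSTM4, a mu-class transferase, was at 253, 349.9 and 421 in treated libraries at time point 10 and at 220.5 in R8 and 773 in R10. Without R8 it passed at time points 8, 9 and 10 (-0.78, -0.81 and -1.21), R9 and R10 being at 574 to 828 over these times, beside 2.65% of the tests of all genes at single time points. At time point 10 that fit has R10 as its only DMSO library, which is assumed to vary like the other groups.

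The other members with the 5 smallest p-values at each time point were as follows, none past the threshold. At time point 1 treated libraries differed by -0.30 ± 0.094 in GSTK1, -0.37 ± 0.20 in ALDH6A1, -0.26 ± 0.14 in GSTA4, -0.38 ± 0.26 in GSTM2 and -0.52 ± 0.39 in ALDH3B1. At time point 4 they differed by -0.80 ± 0.37 in AKR1E2, 1.47 ± 0.73 in ALDH1L1, -0.18 ± 0.11 in GSTK1, -0.76 ± 0.51 in AKR1C1 and -0.29 ± 0.22 in ALDH6A1. At time point 5 GSTO2 (0.47 ± 0.24), CBR4 (-0.21 ± 0.17), ALDH1L1 (0.72 ± 0.63), ALDH1L2 (0.36 ± 0.33) and AKR1E2 (-0.31 ± 0.32) led. No member was among these at all of time points 1, 4 and 5. At time point 6 GSTP1 (-0.20 ± 0.12), ALDH3A2 (0.20 ± 0.14), CBR1 (-0.22 ± 0.17), GSTK1 (0.11 ± 0.094) and AKR1C1 (0.51 ± 0.45) came first. At time point 7, with 1 DMSO library, ALDH3A2 (0.49 ± 0.21), ALDH1A1 (-2.02 ± 1.57), MGST1 (-0.41 ± 0.34), AKR1B1 (-0.26 ± 0.23) and GSTM3 (0.29 ± 0.27) did. GSTK1 was thus lower in treated libraries at time points 1 and 4 and higher at time point 6 in these estimates. At time point 8 the differences were 0.21 ± 0.096 in ALDH18A1, -0.32 ± 0.16 in AKR1A1, 0.71 ± 0.38 in AKR1C3, -0.40 ± 0.23 in GSTM4 and 0.23 ± 0.14 in ALDH3A2. Beside ALDH9A1, those of time point 9 were -0.61 ± 0.26 in GSTM4, -0.38 ± 0.19 in GSTZ1, -0.20 ± 0.11 in GSTK1 and 0.47 ± 0.28 in GSTO2. Beside ALDH18A1, those of time point 10 were -0.54 ± 0.22 in CBR4, 0.42 ± 0.18 in ALDH3A2, 1.13 ± 0.49 in AKR1C3 and 0.37 ± 0.16 in GSTP1.

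Genes around these enzymes were then described by lists. Among genes of glutathione supply, 3 of 14 tested rose and 3 fell in treated lineages, and 3 rose and none fell in DMSO lineages. For this and the following lists, the shares of all genes were 15.6% rising and 23.8% falling in treated and 4.55% and 5.31% in DMSO lineages. The cystine carrier SLC7A11 rose by 0.23 ± 0.030 per time point in treated and 0.36 ± 0.045 in DMSO lineages, and its partner SLC3A2 by 0.053 ± 0.013 and 0.075 ± 0.020. OPLAH, which recycles oxoproline, fell by 0.12 ± 0.025 in treated lineages, and glutathione synthetase GSS fell by 0.040 ± 0.0077. The list's median slope was -0.0056 in treated lineages beside -0.0076 for all genes. Of 12 glutathione peroxidases and peroxiredoxins, 5 rose and 2 fell in treated lineages and none passed in DMSO lineages, with a median of 0.035 in treated lineages (15.6% of all genes rose and 23.8% fell there). GPX3 (0.24 ± 0.079) and PRDX5 (0.071 ± 0.013) were among those that rose, and GPX2 (-0.14 ± 0.017) and PRDX1 (-0.079 ± 0.027) were those that fell.

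NRF2 regulators and other NRF2 targets had 6 of 18 rising and 2 falling in treated lineages, and 4 rising and none falling in DMSO lineages, beside 15.6% and 23.8% of all genes in treated and 4.55% and 5.31% in DMSO lineages. The medians were 0.032 in treated and 0.063 in DMSO lineages, beside -0.0076 and -0.0091 for all genes. NFE2L2, which encodes NRF2, rose by 0.053 ± 0.014 in treated and 0.11 ± 0.022 in DMSO lineages. The partner MAFF rose by 0.19 ± 0.050 in treated lineages, and FTH1, the ferritin heavy chain, fell by 0.14 ± 0.029. Of the 4 tested cytochrome P450 genes and their reductase, CYP3A7 (-0.14 ± 0.032), CYP3A5 (-0.13 ± 0.029) and the reductase POR (-0.027 ± 0.0087) fell in treated lineages and none passed in DMSO lineages.

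In the retinoid pathway around ALDH1A1, 2 of 13 rose and 5 fell in treated lineages, beside 15.6% and 23.8% of all genes, and none passed in DMSO lineages. CRABP2, the retinoic acid carrier, rose by 0.52 ± 0.095 per time point, while the retinoic acid hydroxylase CYP26B1 (-0.19 ± 0.034) and the receptor RARB (-0.18 ± 0.043) were among those that fell. Of 14 other carbonyl and quinone reductases, 2 rose and 2 fell in treated lineages, and 1 rose and 2 fell in DMSO lineages. DHRS7 rose (0.10 ± 0.024 in treated, 0.19 ± 0.037 in DMSO lineages), PTGR1 fell (-0.14 ± 0.019 and -0.11 ± 0.028) and DHRS1 fell (-0.050 ± 0.0099 and -0.085 ± 0.015). DHRS2 rose by 0.36 ± 0.091 in treated lineages. Of 6 exporters of conjugates and anthracyclines, ABCC3 rose (0.14 ± 0.053) and ABCC5 (-0.10 ± 0.028), ABCC10 (-0.090 ± 0.016) and ABCC1 (-0.039 ± 0.011) fell in treated lineages, and ABCC1 fell in DMSO lineages (-0.070 ± 0.017). Over all time points and after EC against VDC, 0 genes of any of these lists passed (limma), as 0% of all genes did. At single time points, CYP3A5 was lower in treated libraries at time point 10 (-1.47 ± 0.32; adjusted p = 0.0461, limma), where 0.0618% of all genes passed.

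Markers of other cell types also changed with time. In treated lineages 3 of 6 tested fibroblast and muscle markers rose, ACTA2 (0.21 ± 0.062), DES (0.22 ± 0.061) and COL3A1 (0.12 ± 0.038), and ACTA2 rose in DMSO lineages (0.35 ± 0.095). Their summed level was 4833 in the parental library, 5540 to 30433 in treated and 5376 to 11623 in DMSO libraries, with MYOD1 and MYOG at medians below 1. COL3A1 was also higher in treated than DMSO libraries at time point 9 (1.85 ± 0.51; adjusted p = 0.0485, limma), and the Ewing sarcoma marker NR0B1 was lower there (-1.07 ± 0.28; adjusted p = 0.0394, limma), where 1.33% of all genes passed. Of 9 tested Ewing sarcoma markers, 4 fell in treated and 3 in DMSO lineages, LIPI, STEAP1 and BCL11B in both, and the list's summed level was 58392 to 114558 in treated and 67357 to 146552 in DMSO libraries. The splicing regulator ESRP1 of the epithelial list rose in both arms (0.32 ± 0.063 and 0.35 ± 0.096), while KRT5, KRT19, EPCAM and CDH1 had medians below 1. The summed epithelial level was 34.2 to 239 in treated and 34.7 to 218 in DMSO libraries, and the summed blood level 23.6 to 69.4 and 20.4 to 179, with CD3E, LYZ, CD68 and HBB at medians below 1. The part of these markers in the changes of the enzymes was not tested.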

How the data were processed

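RNA was extracted with a Qiagen AllPrep kit from CHLA-9 cultures, per the labels' protocols. STAR, featureCounts and GRCh38 are named, without versions, in the submitters' processing notes. The deposited signal, quantile-normalized counts of 36233 genes in 73 columns, was made by the authors; how is not given in the sources used here. Treated columns each sum to 13583520 and the others to 13582508, so sequencing depth cannot be read from them and intervals for counting error are left out.

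Members and lists were chosen with earlier results of these data known. The 14565 genes whose mean reached 10 were analysed as log2(value + 1) with limma 3.58.1 (trend) in R 4.3.3, with Benjamini-Hochberg adjustment over all of them and a threshold of 0.05. For the overall comparison each lineage had 1 value adjusted for time point, and slopes were fitted per lineage (7 treated, 3 DMSO). EC was compared with VDC with lineage as a replicate block, and single time points in a shared fit of 72 libraries, in which the only DMSO library at time point 7 was assumed to vary like the others. The sample titles give a time point and a replicate number, and each replicate number was taken as 1 culture sampled repeatedly. As a check of this pairing, deviations from group means had a mean correlation of 0.0814 within lineages (219 pairs) and -0.0152 between lineages of an arm.

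The genes named were every member past the threshold, the 5 smallest p-values where fewer passed, a fixed set of well-known members, and from each list up to 4 with the largest change. A list gene that this rule would name is not reported here. Alternatives were the pseudocount (10), the filter, joint quantile normalization, robust limma, the lineage term, and leaving out lineages, libraries or time points. Exon lengths, overlaps and 50-base matches came from GENCODE v29 and promoters from RefSeq. Functions were tested on simulated data. Plots used Python 3.11.15 with matplotlib 3.10.9.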

Additional observations from a re-analysis of the deposited data

Results flagged for a closer look

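Among the 7 treated lineages, levels over all time points and slopes of the 34 members were examined for 1 lineage far from the others, 68 groups in all, where chance alone flags about 1 in 20 groups. R1 lay apart in 4 members. Its log2 level of AKR1C1 was 5.65, beside 4.90 to 5.07 in the other lineages, and that of AKR1E2 was 8.66, beside 7.90 to 8.13. It was low for ALDH16A1 (9.05 beside 9.17 to 9.26) and ALDH18A1 (10.47 beside 10.66 to 10.70). In DMSO lineages R8, R9 and R10 the levels were 4.60, 5.36 and 5.52 for AKR1C1 and 8.03, 8.65 and 8.65 for AKR1E2. Those of ALDH16A1 were 9.15, 9.11 and 9.21 there, and those of ALDH18A1 10.61, 10.46 and 10.49. R2 was low for GSTZ1 (6.63 beside 6.75 to 6.83). The slope of GSTA4 was highest in R5, at 0.066 per time point beside -0.032 to 0.0039.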

How the results depend on the processing

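Of the recomputed counts of called members, 123 stayed within 1.5 times their value and 13 did not. Those that stayed included all those with another pseudocount, joint normalization or robust limma. Treated slopes went from 15 calls to 4 without time point 1 and 0 with time points 4 to 10 alone, and to 12 to 18 without single lineages. DMSO slopes went from 7 calls to 2 without a filter on low values, 0 without time point 1, 0 with time points 4 to 10 alone, and 0 to 9 without single lineages, the 0 coming without R9 or R10. Without the replicate block they rose to 18. The replicate block changed no other count of called members by over 1.5 times (0 with it over all time points and at single time points; treated slopes gave 16 without it). The settings with time points 4 to 10 alone and those without late libraries were chosen after seeing the data. Without single lineages, calls were 0 to 1 over all time points (1 without R8), 0 to 2 for EC against VDC (2 without R1, 1 without R5) and 0 to 4 at single time points (4 without R8, 1 without R5, ALDH16A1 at time point 9). The sign reversed for the DMSO slope of ALDH1B1 with time points 4 to 10 alone (-0.055), and without 4 late DMSO libraries (R9 at time points 8 and 9, R10 at 9 and 10) for the slope differences of ALDH1L1 (0.093) and GSTP1 (-0.016). The causes were not tested. The DMSO arm rests on 3 lineages, and depth is unknown.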
